A study of Mus musculus with 18 samples.

Results

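The simple keratins Krt7, Krt8, Krt18 and Krt19 and the epithelial junction genes Cldn4, Cldn6, Cldn7, Epcam and Rab25 were followed through 6 groups of mouse embryonic stem cell samples. The 9 genes were chosen with earlier results of these data known. They were taken by symbol: every probe set that the platform's annotation ties to one of these names was used, which gave 12 of 45101 probe sets and 9 of the 18193 genes with a probe set of their own. Krt8 had 3 probe sets and Epcam had 2, and the other genes had 1 each. For the tests a gene was represented by its probe set with the highest mean level.

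RNA of each sample was hybridised to 1 expression array, with 3 biological replicates in each group. All samples carry the source name of the CGR8 line, mouse embryonic stem cells grown with serum and the cytokine LIF. In 12 samples the cells had been lipofected with plasmids: an empty vector, Foxd3, CA-NFATc3, or Foxd3 and CA-NFATc3 at once, here called the combination and named both in the plots. Foxd3 is a forkhead transcription factor of pluripotent cells and neural crest. CA-NFATc3 stands, by the usual meaning of the prefix, for a constitutively active NFATc3, a factor that calcineurin activates. The other 6 samples were Foxd3 conditional knockout cells, named Foxd3fl/fl:Cre-ERT in the design, which had received tamoxifen for 2 days or, at 0 days, DMSO. The groups of this pair both carry the floxed allele and the inducible Cre, so no group shows tamoxifen in cells without them. The sources used here do not say which promoters the plasmids carry, how long after transfection RNA was taken, how many knockout clones there were or whether feeder cells were used.

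Simple keratins are the intermediate filament proteins of single-layered epithelia. A type II keratin (Krt7, Krt8) polymerises with a type I keratin (Krt18, Krt19), and Krt8 with Krt18 is the earliest such pair of the mouse embryo, where the trophectoderm is the first epithelium. Claudins 4, 6 and 7 are membrane proteins that form the strands of tight junctions and set their permeability. Epcam is an adhesion molecule of epithelia and of pluripotent cells that binds claudin 7, and Rab25 is a small GTPase of the Rab11 family that works in the recycling of membrane to the apical surface.

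The labels were checked first. The Foxd3 probe set went against the label of the Foxd3 samples: vector arrays gave 443 ± 55.9 (SD, n = 3), those labelled Foxd3 237 ± 5.95, CA-NFATc3 arrays 451 ± 38.6 and the combination 234 ± 37.7. The difference between the samples labelled Foxd3 and the vector was -0.81 ± 0.13 log2 units (limma, adjusted p = 0.00169). The sources used here do not say whether the plasmid's transcript holds the sequence read by this probe set, so the direction of every comparison with these samples rests on the label alone. Nfatc3 had 1581 ± 31.4 with the vector and 1732 ± 58.5 with CA-NFATc3, which did not pass the test (adjusted p = 0.352), while Rcan1, a target of calcineurin and NFAT, rose from 1196 ± 60.6 to 3702 ± 776 (adjusted p = 2.05e-07). With the combination Rcan1 was 1441 ± 62.7, which was not called against the vector (0.26 ± 0.11, adjusted p = 0.224). In the knockout cells Foxd3 fell from 219 ± 25.9 with DMSO to 31.4 ± 29.6 with tamoxifen (adjusted p = 0.000146).

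All 8 stem cell markers of a fixed list, Pou5f1, Sox2 and Tdgf1 among them, were above the overall median signal on every array. Replicates of a group correlated at r of 0.981 to 0.988, and median signals ran from 55.2 to 67.1 on arrays of transfected cells but from 73.0 to 80.7 on those of knockout cells. The actin control, read near its 3' and 5' ends as a sign of RNA integrity, had a ratio that was 2.31 ± 0.03 with the vector and 2.23 ± 0.03 with CA-NFATc3, 2.27 ± 0.08 with the Foxd3 label and 2.31 ± 0.09 with the combination, and it was 2.15 ± 0.09 with DMSO and 1.89 ± 0.003 with tamoxifen. The number of arrays limits the precision. In these bulk samples, fewer cells of a type and less RNA per cell cannot be told apart.

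The sequences around the start sites are shown because the windows of these genes share a motif. The genes were taken by symbol, but the motif came from a short list set by hand. That list also held NFAT, forkhead and AP-1 sequences. The shares below are therefore a description and no independent support. RefSeq windows of 300 bases (250 before and 50 after an annotated start, assembly GRCm38.p6) were found for 8 of the 9 genes, with 2 windows for Cldn7. No such window was found for Krt19, so the motif results do not cover it. In the runs below, read 5′ to 3′ on the gene's strand, capitals mark matches on either strand to the E-box CACCTG or to the NFAT core GGAAAA. Read from the opposite strand, the E-box appears as CAGGTG. The NFAT core then appears as TTTTCC. The first Cldn7 window, chr11:69964529-69964828 on the plus strand, and the second, chr11:69965171-69965470 on the plus strand, belong to the claudin with the clearest responses below. The Epcam window is chr17:87635729-87636028 (plus), the Cldn6 window chr17:23679115-23679414 (plus), the Rab25 window chr3:88548230-88548529 (minus) and the Krt8 window chr15:102004293-102004592 (minus).
Cldn7, first window: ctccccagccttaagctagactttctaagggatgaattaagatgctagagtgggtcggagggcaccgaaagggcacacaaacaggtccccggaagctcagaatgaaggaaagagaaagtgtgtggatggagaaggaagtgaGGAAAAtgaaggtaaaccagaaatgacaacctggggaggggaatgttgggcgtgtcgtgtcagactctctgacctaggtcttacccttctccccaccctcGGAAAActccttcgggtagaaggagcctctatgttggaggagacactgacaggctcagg
Cldn7, second window: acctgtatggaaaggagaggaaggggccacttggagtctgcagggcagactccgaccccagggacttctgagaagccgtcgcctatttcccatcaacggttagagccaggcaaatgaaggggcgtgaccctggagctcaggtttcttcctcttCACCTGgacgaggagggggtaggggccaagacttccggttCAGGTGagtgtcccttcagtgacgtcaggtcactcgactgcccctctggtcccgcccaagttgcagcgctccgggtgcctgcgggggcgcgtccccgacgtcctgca
Epcam: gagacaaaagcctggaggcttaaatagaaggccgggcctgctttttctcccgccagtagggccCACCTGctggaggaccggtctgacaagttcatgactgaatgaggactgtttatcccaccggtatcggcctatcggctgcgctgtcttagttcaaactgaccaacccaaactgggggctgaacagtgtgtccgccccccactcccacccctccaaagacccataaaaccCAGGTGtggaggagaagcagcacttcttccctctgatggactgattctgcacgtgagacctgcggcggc
Cldn6: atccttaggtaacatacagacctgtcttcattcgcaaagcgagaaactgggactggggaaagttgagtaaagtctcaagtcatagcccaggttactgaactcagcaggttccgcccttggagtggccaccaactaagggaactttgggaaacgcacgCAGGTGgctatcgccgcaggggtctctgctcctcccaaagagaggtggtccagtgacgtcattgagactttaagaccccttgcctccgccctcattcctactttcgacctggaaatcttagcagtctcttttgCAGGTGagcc
Rab25: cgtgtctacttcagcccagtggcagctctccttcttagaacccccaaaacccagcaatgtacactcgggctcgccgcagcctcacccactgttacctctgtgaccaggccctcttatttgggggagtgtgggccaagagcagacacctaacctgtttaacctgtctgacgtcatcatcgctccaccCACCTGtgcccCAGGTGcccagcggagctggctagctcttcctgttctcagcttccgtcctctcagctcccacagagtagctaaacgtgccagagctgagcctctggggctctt
Krt8: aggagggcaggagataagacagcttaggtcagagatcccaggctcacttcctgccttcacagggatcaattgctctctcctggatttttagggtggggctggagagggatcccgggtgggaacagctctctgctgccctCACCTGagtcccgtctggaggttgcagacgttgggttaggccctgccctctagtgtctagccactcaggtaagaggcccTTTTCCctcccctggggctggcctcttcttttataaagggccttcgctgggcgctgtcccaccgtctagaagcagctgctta

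The E-box CACCTG, a sequence recognised by the repressors of the Snai and Zeb families, was found in 8 of the 9 windows, that is in at least 1 window of each of the 8 genes. Of 32851 windows of the same length in the reference table, 20.2% held it. Cldn4, Cldn6, the second Cldn7 window, Epcam and Rab25 held it at 2 positions each, and Krt7, Krt8 and Krt18 at 1. Positions are given from the start base at 0. In Rab25 the 2 matches began at -64 and -53, and in the second Cldn7 window at -97 and -57. The NFAT core GGAAAA was found in 2 of the 9 windows, at -109 and -9 in the first Cldn7 window and at -32 in Krt8, against 23.4% of all windows. The AP-1 sequence TGANTCA occurred in 1 window, that of Cldn4, at -240 and -158, against 7.81% of all windows. The forkhead cores TGTTTAC (3.65% of all windows) and TGTTTGC (5.07%) were in 0 of the 9. These windows were not matched for base composition, no test was made, and a match describes letters, not binding.

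**Figure D1:**
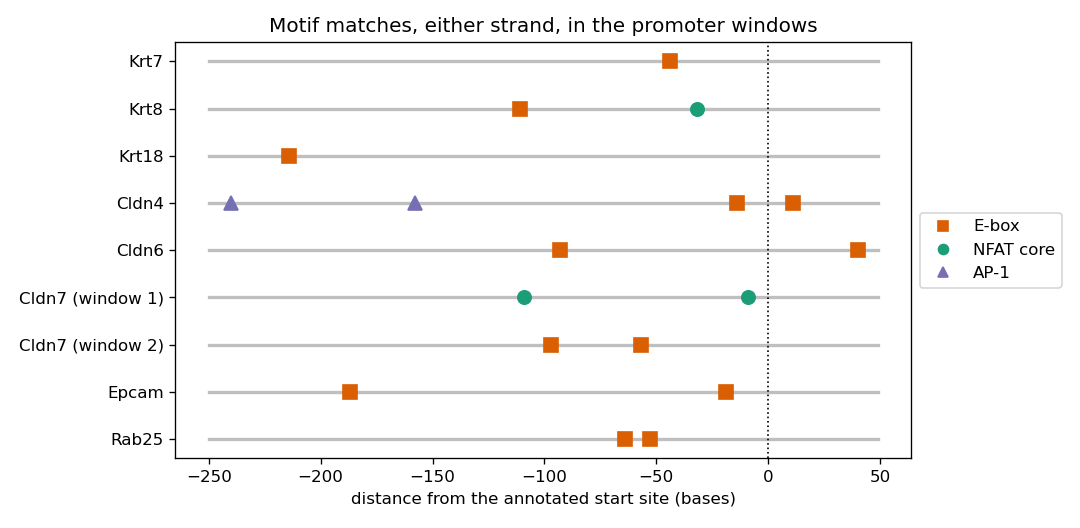
Positions of motif matches on either strand in the 9 promoter windows, as the distance in bases of the match's first base from the annotated start (dotted line at 0); grey lines span each window. E-box matches (squares) appear in 8 of the 9 windows, NFAT cores (circles) in the first Cldn7 window and in Krt8, and AP-1 sequences (triangles) in Cldn4.

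The levels of the 9 genes separated the knockout cells from the transfected cells more than any plasmid separated the transfected groups from each other for Krt8 and Krt18. Krt8 gave signals of 279, 374 and 283 on the vector arrays and of 4642, 4177 and 6136 on the DMSO arrays, a ratio of means of 15.98. Krt18 gave 268, 290 and 283 against 4221, 4368 and 5924, a ratio of 17.3. Every DMSO array lay above every vector array for 8 of the genes, with ratios of 10.0 for Krt19, 5.83 for Cldn7, 4.28 for Cldn6, 3.37 for Krt7, 2.85 for Cldn4 and 1.54 for Epcam. Rab25 ran the other way, with 111, 138 and 160 on the vector arrays against 32.8, 74.6 and 13.6 with DMSO, a ratio of 3.38 of vector over DMSO. These ratios carry no test, since the cells' construct, their handling and the arrays' different median signals cannot be told apart. The share of all genes whose vector and DMSO arrays do not overlap was not counted. The number of genes given here therefore has no background beside it and is not a trait shown for them.

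Within the transfected cells the order of the groups differed from gene to gene. For Krt19 and Cldn7 the CA-NFATc3 group stood above the other 3 transfected groups on every array, and its Krt19 values overlapped those of both knockout groups. For Cldn6 the vector group was the lowest and did not overlap with its neighbour, the combination. For Krt8 all 4 transfected groups overlapped with their neighbours in the order of means, which ran from 296 ± 28.0 with CA-NFATc3 to 360 ± 68.1 with the combination. Krt18 was lowest with the vector (280 ± 10.9), without overlap with the next group, CA-NFATc3 (337 ± 46.2), and highest with the combination (455 ± 50.9). For Cldn4 the means with the vector and the combination were both 671, and its CA-NFATc3 arrays lay above all vector arrays. Epcam gave 5287 or more on every array of the study and its group means ran from 5513 ± 221 with the vector to 8485 ± 318 with DMSO, a ratio of 1.54.

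**Figure D2:**
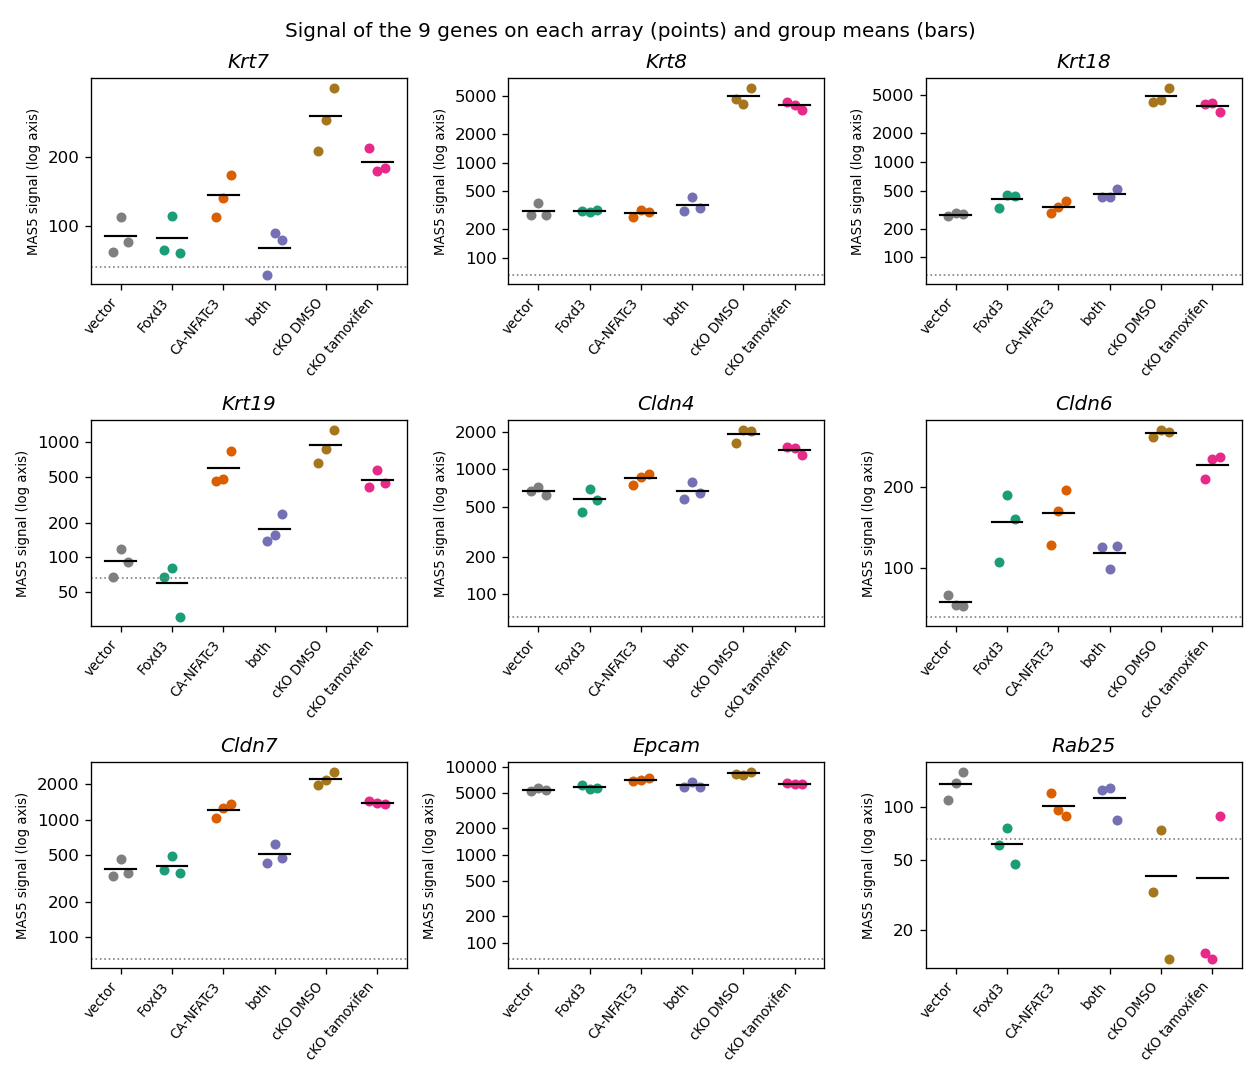
MAS5 signal (log axis) of each gene's representative probe set on each of the 18 arrays (points, replicates 1 to 3 from left to right) with the group's mean (bar); the dotted line is the overall median signal of 65.8. Krt8 and Krt18 separate knockout from transfected cells, and Krt19 and Cldn7 are high with CA-NFATc3 among the transfected cells.

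CA-NFATc3 against the vector asks what the active factor alone does to these genes. 4 of the 9 rose and 0 fell: the keratin Krt19, the claudins Cldn7 and Cldn6, and Epcam. Over all 11609 genes tested in the transfected cells, 4.62% were called higher in this comparison. Changes here and below are log2 differences of the signal plus 32, with the SE of the limma fit, which understates the change of low signals, and the threshold for a call was an adjusted p of 0.05. The median change of the 9 genes was 0.38, against -0.005 over all genes. As the genes were chosen with earlier results of these data known, such shares and medians are a description and no independent support.

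Among the keratins the response was uneven. Krt19, a type I keratin that lacks the tail domain of its relatives, gave 68.2, 119 and 91.8 on the vector arrays and 463, 480 and 839 with CA-NFATc3. All 3 CA-NFATc3 arrays were above all vector arrays, and the change was 2.29 ± 0.26 (adjusted p = 3.72e-05). Krt8, with which it can pair, gave 265, 319 and 303 with CA-NFATc3 against 279, 374 and 283, which overlap, a difference of -0.06 ± 0.14 (adjusted p = 0.900). The other Krt8 probe sets, whose names mark them as open to hybridisation with related transcripts, differed by -0.03 ± 0.13 and -0.18 ± 0.20 and were not called. Krt18 (0.23 ± 0.13, adjusted p = 0.436) and Krt7 (0.46 ± 0.20, adjusted p = 0.244) did not pass the test. Krt7 gave 109, 132 and 168 with CA-NFATc3 against 76.2, 109 and 84.2 with the vector, so its lowest CA-NFATc3 array fell within the vector's span.

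Among the junction genes Cldn7 moved most. It gave 335, 462 and 351 on the vector arrays and 1025, 1255 and 1347 with CA-NFATc3, groups that did not overlap, and rose by 1.59 ± 0.16 (adjusted p = 1.03e-05). Cldn6, a claudin of early embryonic epithelia, gave 79.2, 72.5 and 72.0 with the vector and 122, 163 and 195 with CA-NFATc3, a rise of 0.83 ± 0.19 (adjusted p = 0.0137). The vector values lie close to the filter of 65.8, and the Cldn6 call was lost without vector replicate 3 (adjusted p = 0.0549), without CA-NFATc3 replicate 2 (0.0519) and without CA-NFATc3 replicate 3 (0.105). Epcam rose from 5287, 5729 and 5524 to 6921, 7184 and 7434, again without overlap, a small change of 0.38 ± 0.07 (adjusted p = 0.00167). Its second, dimmer probe set changed by 0.28 ± 0.21 and was not called (adjusted p = 0.646), and the mean of the pair was not called either (adjusted p = 0.155). Cldn4 (0.32 ± 0.14, adjusted p = 0.273) and Rab25 (-0.32 ± 0.19, adjusted p = 0.473) did not pass. The same count, 4 of 9, was called with only the CA-NFATc3 and vector arrays in the fit.

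Of a list of 41 other genes of epithelial junctions and polarity, 31 were tested. With CA-NFATc3, 9 of them rose, 0 fell and 22 were not called, and the list's median was 0.25. The largest rises were of 3 tight junction components. Marveld2 (tricellulin, at the corners where 3 cells meet) rose by 1.35 ± 0.22 (adjusted p = 0.00106), from 55.6 ± 4.11 to 197 ± 63.4. Patj, a scaffold of the Crumbs polarity complex, rose by 1.29 ± 0.22 (adjusted p = 0.00140). Ocln, occludin, went from 320, 349 and 310 on the vector arrays to 677, 699 and 897, a rise of 1.13 ± 0.12 (adjusted p = 1.60e-05). Of 15 other keratins and desmosome genes 2 rose, Krt23 by 1.68 ± 0.38 and the cytolinker Plec by 0.78 ± 0.12. Krt23, and Myo5b among the 9 junction and polarity genes that rose, entered the test through their CA-NFATc3 arrays alone.

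Of 13 epithelial regulators 2 rose with CA-NFATc3: Elf5, an Ets factor of trophoblast and glandular epithelium, by 2.06 ± 0.25, and the splicing factor Esrp1 by 0.45 ± 0.09. Elf5 gave 23.7, 14.5 and 2.92 with the vector and 169, 118 and 184 with CA-NFATc3. It entered the test through its CA-NFATc3 arrays alone, and the count of 2 includes it. Of 6 mesenchymal genes tested, the E-box-binding repressor Zeb1 fell by 0.51 ± 0.12 on the log2 scale (adjusted p = 0.0182), from 500, 486 and 556 to 414, 304 and 344. In the same list Twist1 rose by 1.68 ± 0.27 and Fn1 (fibronectin) by 0.33 ± 0.09. Snai2, of the other family of E-box repressors, had a positive change that was not called (0.67 ± 0.27, adjusted p = 0.205 in the limma fit). Snai1 and Zeb2 were not tested in the transfected cells.

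Markers of other lineages moved in the same comparison. The summed signal of 10 trophoblast markers was 3173 to 3820 on the vector arrays and 4152 to 4628 with CA-NFATc3, and 3 of the 7 tested rose, Elf5, Eomes (1.97 ± 0.20) and Hand1 (0.88 ± 0.21). The sum of 11 primitive and visceral endoderm markers was 581 to 694 with the vector and 898 to 1362 with CA-NFATc3, and 2 of 5 rose, Sox17 (1.47 ± 0.25) and Dab2 (1.20 ± 0.18). With CA-NFATc3, 4 of the 10 trophoblast and 3 of the 11 endoderm markers were below 65.8 on all 3 arrays. The sum of 11 fibroblast markers was 838 to 1051 with CA-NFATc3, above the vector's 610 to 695. Of the 5 tested, Col3a1 rose by 2.32 ± 0.22 (adjusted p = 5.94e-06), from 18.1 ± 5.12 to 221 ± 56.6, and 7 of the 11 were below 65.8 on all 3 CA-NFATc3 arrays. The part of these cell types in the rise of Krt19 and the claudins was not tested.

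The samples labelled Foxd3 against the vector showed 1 of the 9 genes lower, Rab25, and 0 higher. Over all genes, 1.17% were called lower. Rab25 gave 111, 138 and 160 with the vector and 61.3, 75.8 and 47.4 in the samples labelled Foxd3, groups that did not overlap, and fell by 0.85 ± 0.19 on the log2 scale (adjusted p = 0.0235). Part of these values lie below 65.8, and the call was lost without vector replicate 2 (adjusted p = 0.0819) or 3 (0.125), without replicate 1 (0.0652) or 3 (0.125) of the samples labelled Foxd3, and with all 18 arrays in the fit (0.175).

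Cldn6 and Krt18 were higher on every array labelled Foxd3 than on any vector array, but missed the threshold. Cldn6 gave 105, 187 and 153 (0.73 ± 0.19, adjusted p = 0.0510), and Krt18 gave 331, 446 and 435 against 268, 290 and 283 (0.47 ± 0.13, adjusted p = 0.0720). With the replicate number as a block, which the transfected samples' residuals bear out, both were called (adjusted p = 0.0270 for Cldn6 and 0.0136 for Krt18) and the count became 3. Over all 11609 genes the block raised the calls in either direction from 334 to 783. With all 18 arrays in 1 fit Cldn6 was called (adjusted p = 0.0126) where Rab25 was not, so the count of 1 turned from lower to higher. Both were also called without replicate 1 of the samples labelled Foxd3 (adjusted p = 0.0212 and 0.0302), and Cldn6 without CA-NFATc3 replicate 1 (0.0404), whose array enters through the shared spread. Cldn7 (0.08 ± 0.16), Epcam (0.09 ± 0.07), Krt8 (-0.005 ± 0.14) and Krt7 (-0.02 ± 0.20) had changes smaller than their errors or near them. Krt19 (-0.47 ± 0.26, adjusted p = 0.444) and Cldn4 (-0.23 ± 0.14, adjusted p = 0.512) were not called either.

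Of the 31 other junction genes 1 fell with the Foxd3 label, Perp, a desmosomal membrane protein and p53 target (-0.48 ± 0.12, adjusted p = 0.0357), and 30 were not called. Of the 13 epithelial regulators Esrp1 rose by 0.48 ± 0.09, and Klf5 (-0.40 ± 0.09), Tfap2c (-0.39 ± 0.10) and Klf4 (-0.33 ± 0.08) fell. The summed trophoblast markers were 2605 to 3102 with the Foxd3 label, under the vector's 3173 to 3820, and most of either sum was Tfap2c, with means of 2172 and 2849. The fibroblast marker sum was 780 to 836, above the vector's 610 to 695, with 0 of 5 tested markers called. Of the 8 stem cell markers Esrrb fell by 0.23 ± 0.06 on the log2 scale (adjusted p = 0.0479) and 7 were not called. The part of any other cell type in the values of Rab25, Cldn6 and Krt18 was not tested.

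The combination against the vector asks what the plasmids do at once. Krt18 was the gene called among the 9, and it was higher, against 3.48% of all genes called higher. It gave 426, 425 and 514, above every vector array, a rise of 0.64 ± 0.13 (adjusted p = 0.00987). The call was lost without combination replicate 3 (adjusted p = 0.0614). Krt19 gave 138, 155 and 237, above all vector arrays and below all CA-NFATc3 arrays, and its difference from the vector did not pass (0.73 ± 0.26, adjusted p = 0.143). Cldn7 gave 430, 622 and 473, which overlapped with the vector's arrays (0.38 ± 0.16, adjusted p = 0.222). With the replicate block Cldn7 was also called (adjusted p = 0.0320). Cldn6 (120, 99.5 and 120, a difference of 0.45 ± 0.19) and Epcam (0.17 ± 0.07) lay above all vector arrays without passing (adjusted p = 0.234 and 0.177). The differences of Krt8 (0.19 ± 0.14), Cldn4 (-0.008 ± 0.14), Krt7 (-0.13 ± 0.20) and Rab25 (-0.21 ± 0.19) did not pass. Of the 31 other junction genes 0 were called, with 7 at an unadjusted p under 0.05 in the limma fit, and of the keratin and desmosome list Dsc2, a desmosomal cadherin, rose by 1.10 ± 0.26. The summed signal of 11 fibroblast markers was 610 to 695 with the vector and 1278 to 1397 with the combination, and 3 of the 5 tested rose, led by Col1a2 (2.63 ± 0.26). Of the 11, 6 were below 65.8 on every combination array, and their part in the values of Krt18 was not tested.

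The combination against CA-NFATc3 asks what adding the Foxd3 plasmid does where CA-NFATc3 is on the label, and it shares its CA-NFATc3 arrays with the comparison above. Rcan1, the NFAT target used to check the labels, was itself lower here (-1.32 ± 0.11, limma, adjusted p = 2.35e-06). Whether the changes below go with that fall was not tested. 2 of the 9 genes were lower, Krt19 and Cldn7, and 0 were higher, where 3.69% of all genes were called lower. Krt19 went from 463, 480 and 839 with CA-NFATc3 to 138, 155 and 237, a change of -1.57 ± 0.26 (adjusted p = 0.00140). Cldn7 went from 1025, 1255 and 1347 to 430, 622 and 473, a change of -1.21 ± 0.16 (adjusted p = 0.000199). Neither gene's groups overlapped.

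The other members of the group did not pass in that comparison. Epcam gave 5939, 6746 and 5975 with the combination, all below the CA-NFATc3 arrays (-0.21 ± 0.07, adjusted p = 0.0793). Krt7 gave 60.6, 93.0 and 86.0, also all below (-0.58 ± 0.20, adjusted p = 0.102), and Krt18 was higher on all 3 arrays (0.40 ± 0.13, adjusted p = 0.0948). With the replicate block these 3 were called as well (adjusted p = 0.0430, 0.0413 and 0.0220), which makes 4 lower and 1 higher. The block also raised the calls over all 11609 genes, from 711 to 1258 in either direction. Epcam was also called without combination replicate 2 (adjusted p = 0.0363). Cldn6 (-0.39 ± 0.19), Cldn4 (-0.33 ± 0.14), Krt8 (0.25 ± 0.14) and Rab25 (0.11 ± 0.19) were not called with or without the block.

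Of the 31 other junction and polarity genes 12 were lower with the combination than with CA-NFATc3, 0 were higher and 19 were not called, with a median of -0.30. Ocln changed by -1.18 ± 0.12 (307, 322 and 311 with the combination), Marveld2 by -1.01 ± 0.22 and Myo5b, a motor that works with Rab11 proteins in apical recycling, by -0.95 ± 0.18. Of 15 keratin and desmosome genes 4 were lower, with Krt23 (-1.87 ± 0.38), Plec (-1.09 ± 0.12) and the plakophilin Pkp2 (-0.62 ± 0.10) leading. Of 13 regulators 3 were lower: Elf5 (-2.40 ± 0.25), Tfap2c (-0.48 ± 0.10) and Grhl3 (-0.47 ± 0.10). Elf5 gave 169, 118 and 184 with CA-NFATc3 and 1.89, 3.97 and 4.10 with the combination. Elf5, Krt23 and Myo5b entered the test through their CA-NFATc3 arrays alone. The filter thus picked them by the arrays compared here, and the counts of their lists include them. Zeb1 was higher by 0.62 ± 0.12 (533, 631 and 517), as was Vim (0.46 ± 0.08), and Twist1 was lower (-1.80 ± 0.27). Snai2 was not called (0.14 ± 0.27). The summed trophoblast markers were 2855 to 3012 and the endoderm markers 605 to 650 with the combination, both below every CA-NFATc3 array, and the part of those cell types in the difference was not tested.

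**Figure D3:**
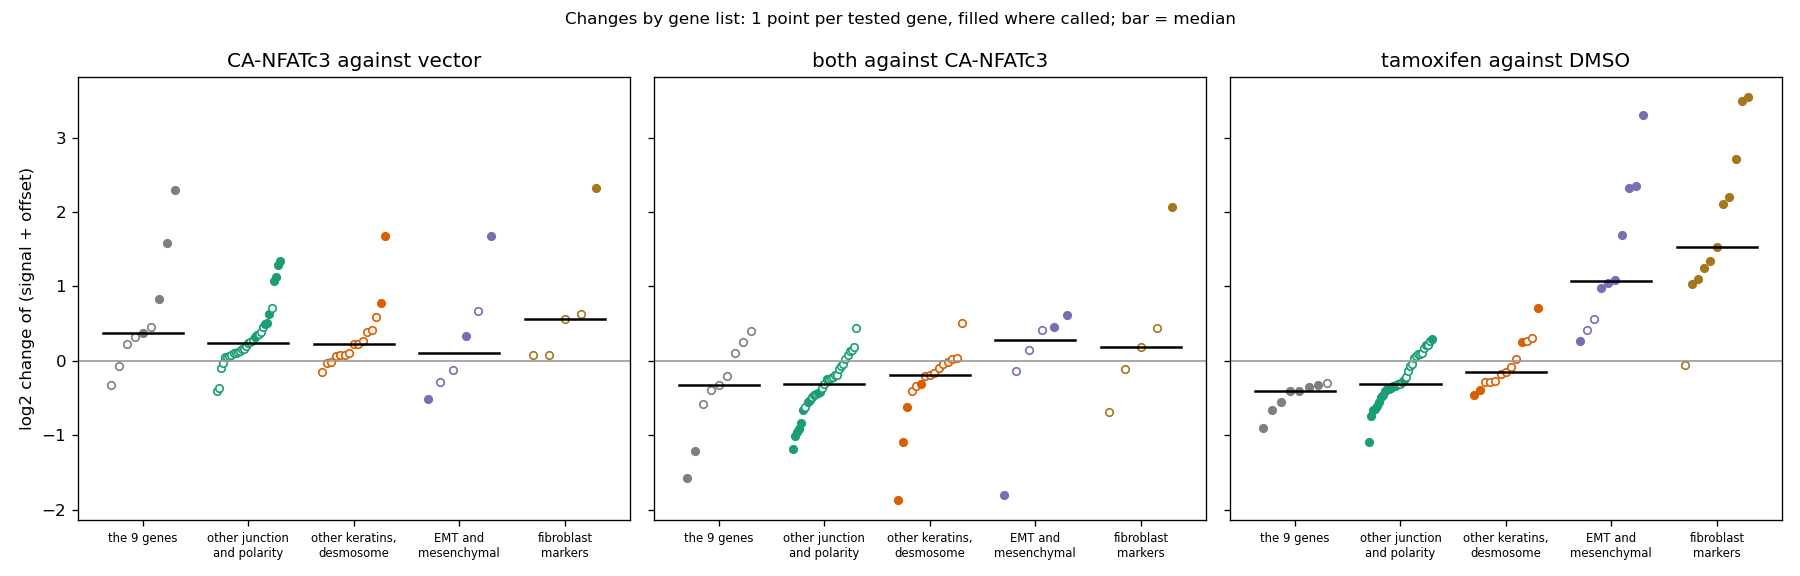
Log2 change of the signal plus 32 for each tested gene of 5 lists (points, filled where the adjusted p was under 0.05; bar, the list's median) in 3 comparisons. Called junction and polarity genes are higher with CA-NFATc3 (9 of 31) and lower with the combination against CA-NFATc3 (12 of 31), while with tamoxifen 16 of 33 are lower and 10 of 11 fibroblast markers higher.

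The combination against the samples labelled Foxd3 gave 0 calls among the 9 genes, where 0.327% of all genes were called in either direction. In the limma fit 2 of the 9 had an unadjusted p under 0.05, Krt19 and Rab25. Krt19 was higher with the combination on every array (138, 155 and 237 against 67.2, 80.5 and 30.5), by 1.20 ± 0.26 (adjusted p = 0.0811), and was called with the replicate block (adjusted p = 0.0461) and without CA-NFATc3 replicate 3 (0.0411). Rab25 was also higher on every array (126, 130 and 84.6 against 61.3, 75.8 and 47.4), by 0.64 ± 0.19 (adjusted p = 0.389). The combination's other differences from the samples labelled Foxd3 lay between -0.29 ± 0.19 for Cldn6 and 0.30 ± 0.16 for Cldn7.

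The interaction term asks whether the effect of CA-NFATc3 differed with and without the Foxd3 plasmid. Cldn7 was the gene called among the 9 (lower), with a term of -1.29 ± 0.22 (adjusted p = 0.00860), where 0.724% of all genes had a called negative term. Its mean was 383 ± 68.9 with the vector and 1209 ± 166 with CA-NFATc3, and where Foxd3 was on the label it was 407 ± 73.7 without CA-NFATc3 and 509 ± 101 with it. Krt19 had a term of similar size and larger error (-1.09 ± 0.37, adjusted p = 0.287), so a difference in its response was not shown. Cldn6, with means of 74.5 ± 4.01 for the vector, 148 ± 41.0 for the Foxd3 label, 160 ± 36.6 for CA-NFATc3 and 113 ± 11.98 for the combination, had -1.12 ± 0.27 (adjusted p = 0.0732). It was called with the replicate block (adjusted p = 0.0393). Cldn6 was also called without replicate 1 of the samples labelled Foxd3 (adjusted p = 0.0294) and without CA-NFATc3 replicate 1 (0.0413). Rab25 had the largest positive term, 0.95 ± 0.27 (adjusted p = 0.160). Of the lists, Ocln (-1.24 ± 0.17, adjusted p = 0.00119), Plec (-0.84 ± 0.17), Elf5 (-2.10 ± 0.35), Twist1 (-1.79 ± 0.38) and the trophoblast marker Eomes (-1.59 ± 0.28, adjusted p = 0.00860) had called negative terms. Elf5 entered the test through its CA-NFATc3 arrays alone. Rcan1, from the label check, also had a called negative term (-1.14 ± 0.16, adjusted p = 0.00130).

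**Figure D4:**
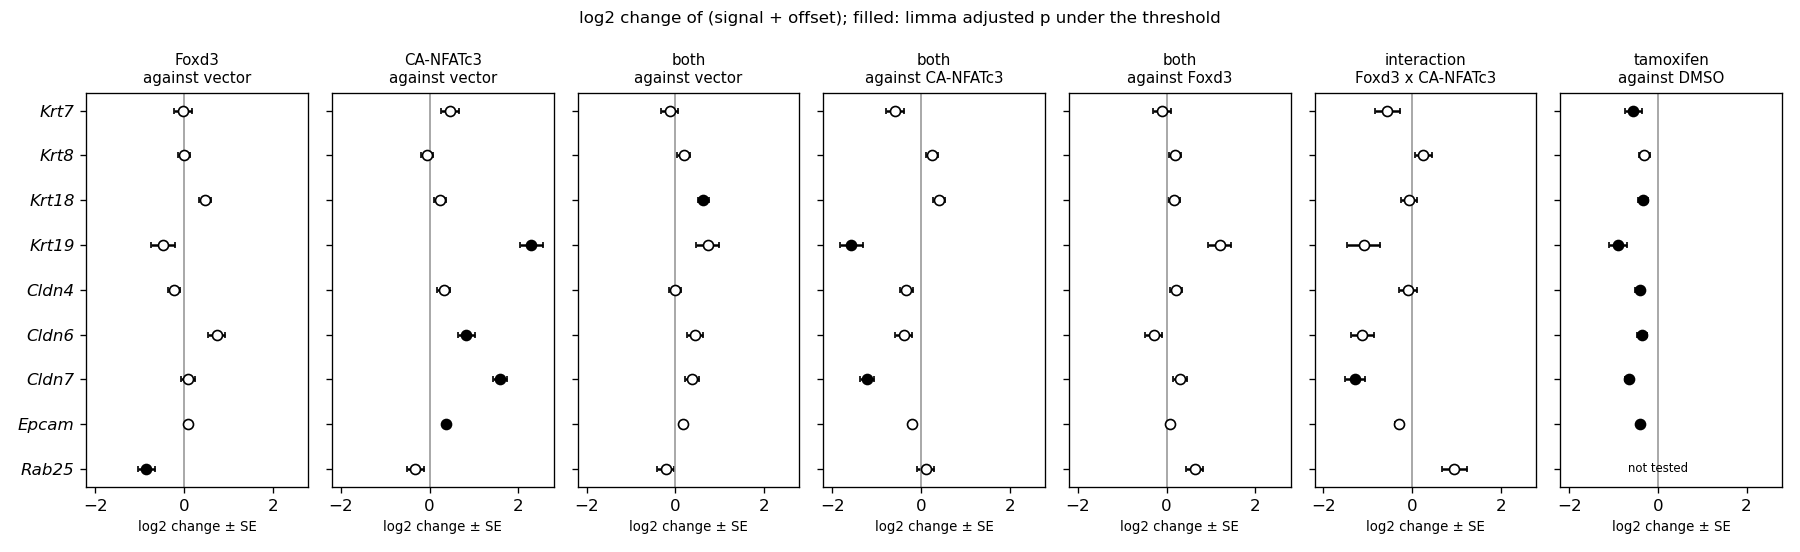
Log2 change of the signal plus 32 (x axis, with the SE of the limma fit as bars) for each of the 9 genes (rows) in the 7 comparisons (columns); filled points had an adjusted p under 0.05. Krt19 and Cldn7 stand to the right with CA-NFATc3 and to the left for the combination against CA-NFATc3, and all 8 genes tested with tamoxifen lie to the left of 0.

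Tamoxifen against DMSO sets knockout cells after 2 days of tamoxifen, where Foxd3 fell, beside those with DMSO, labelled 0 days. The loss of Foxd3, the drug, the active Cre and any difference in time cannot be told apart here. Of the 8 genes tested, 7 fell, 0 rose and Krt8 was not called. Many genes moved in this comparison: 16.9% of the 12093 genes tested were called lower. The median of the 8 was -0.40, against -0.009 over all genes. Rab25 was not tested, since only 2 of the 6 arrays reached 65.8: it gave 32.8, 74.6 and 13.6 with DMSO and 14.6, 13.6 and 89.6 with tamoxifen.

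Among the keratins Krt19 had the largest change. It gave 652, 870 and 1275 with DMSO and 410, 568 and 438 with tamoxifen, groups that did not overlap, and fell by 0.90 ± 0.19 on the log2 scale (adjusted p = 0.00404). Krt7 gave 212, 292 and 405 against 221, 173 and 179, which overlap, and fell by 0.55 ± 0.19 (adjusted p = 0.0408). Its call was lost without DMSO replicate 2 (adjusted p = 0.0848) or 3 (0.145, with a change of -0.34) and without tamoxifen replicate 2 (0.121) or 3 (0.111).

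The keratin pair Krt8 and Krt18 gave 3334 or more on all knockout arrays. Krt18 gave 4221, 4368 and 5924 with DMSO and 4043, 4084 and 3334 with tamoxifen, a change of -0.33 ± 0.12 (adjusted p = 0.0482) that was lost in 11 of 17 alternatives, among them without DMSO replicate 3, where the change was -0.17 (0.142), and without tamoxifen replicate 1 (0.0670), 2 (0.0600) or 3 (0.183). Krt8 gave 4642, 4177 and 6136 against 4314, 4049 and 3616, which overlap (-0.30 ± 0.12, adjusted p = 0.0641), and was called without DMSO replicate 2 (0.0143). The other Krt8 probe sets each changed by -0.24 and were not called (adjusted p = 0.154 and 0.186). For both genes DMSO replicate 3 was the highest array.

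The claudins and Epcam fell more evenly between arrays. Cldn7 gave 1954, 2184 and 2551 with DMSO and 1440, 1391 and 1349 with tamoxifen, without overlap, and fell by 0.66 ± 0.09 (adjusted p = 0.000164). Cldn4, which binds Clostridium enterotoxin and seals many simple epithelia, gave 1624, 2075 and 2039 against 1500, 1495 and 1295 and fell by 0.41 ± 0.10 (adjusted p = 0.00703). Epcam gave 8394, 8223 and 8838 against 6614, 6334 and 6334 and fell by 0.40 ± 0.05 (adjusted p = 6.60e-05). Its second probe set, by its name open to hybridisation with related transcripts, fell by 0.49 ± 0.14 (adjusted p = 0.0224). In all 3 genes every DMSO array was above every tamoxifen array.

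Cldn6 gave 309, 328 and 321 against 214, 256 and 259 and fell by 0.36 ± 0.12 (adjusted p = 0.0327). Its call was lost in 6 of 17 alternatives, among them without DMSO replicate 2 (0.0962) or 3 (0.0671) and without tamoxifen replicate 1 (0.121) or 2 (0.0583). The count of called genes was 4 of 8 without DMSO replicate 3 and also without tamoxifen replicate 2.

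Of 33 other junction and polarity genes tested in the knockout cells 16 fell, 2 rose and 15 were not called, with a median of -0.31. The largest falls were of the claudins Cldn5 (-1.08 ± 0.21) and Cldn3 (-0.74 ± 0.19) and of Rab11fip1, an effector of Rab11 and Rab25 (-0.66 ± 0.17). The rises were of F11r, the adhesion molecule JAM-A (0.29 ± 0.07), and Perp (0.21 ± 0.06). Cldn3 is the next protein-coding gene to Cldn4, and Cldn9 is the next to Cldn6. Cldn9, picked for that position after its values were seen, gave 264, 324 and 269 with DMSO and 157, 191 and 167 with tamoxifen and fell by 0.64 ± 0.13 (adjusted p = 0.00297). Of 13 keratin and desmosome genes Plec (0.71 ± 0.08) and Dst (0.26 ± 0.08) rose, and Pkp2 (-0.46 ± 0.05) and Dsp (-0.39 ± 0.13) fell. Of 13 regulators Tfap2c rose (1.22 ± 0.08), and Klf4 (-0.31 ± 0.04) and Esrp1 (-0.29 ± 0.06) fell.

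Of all genes tested with tamoxifen, 17.5% were called higher. Of 10 mesenchymal genes 8 rose and 0 fell, with a median of 1.07 and the largest rises for Cdh11 (3.30 ± 0.14), Twist2 (2.34 ± 0.15) and S100a4 (2.33 ± 0.09). Snai2, of the other family of E-box repressors named above, rose by 1.69 ± 0.10. Of the same families, Zeb2 was not called (0.56 ± 0.22, limma, adjusted p = 0.0719) and Snai1 was not tested. The part of these repressors in the fall of the keratins and claudins was not tested. Zeb1 was also among the 8, with a smaller rise (1.05 ± 0.13), from 308, 228 and 220 on the DMSO arrays to 579, 553 and 518 with tamoxifen. The summed signal of 11 fibroblast markers was 3217 to 3804 with DMSO and 16790 to 19103 with tamoxifen, and 10 of the 11 rose, led by Dcn (3.54 ± 0.18), Postn (3.49 ± 0.10) and Col1a2 (2.72 ± 0.08). All 11 were at or above 65.8 on every tamoxifen array, and 9 of the 11 on every DMSO array. The summed stem cell markers went from 89258 to 91083 down to 78573 to 83096, and 3 of 8 fell, Tdgf1 (-0.49 ± 0.04), Pou5f1 (-0.19 ± 0.06) and Sox2 (-0.17 ± 0.04), with a list median of -0.14. Of 7 trophoblast markers Ascl2 (-1.28 ± 0.36) and Plet1 (-0.67 ± 0.10) fell and Tfap2c rose, and the list's sum went from 2722 to 3039 with DMSO to 3896 to 4745. That rise of the sum came from Tfap2c, whose mean went from 1362 with DMSO to 3217 with tamoxifen. Of the 7 tested, 5 had negative changes and 2 positive ones, with a median of -0.15. Of 7 endoderm markers Pdgfra (1.33 ± 0.14) and Dab2 (1.02 ± 0.12) rose, and the sum went from 1164 to 1424 with DMSO to 1729 to 2018. Most of that rise was Dab2 (means of 277 and 591) and Pdgfra (112 and 328), and 5 of the 7 were not called. The actin ratio differed between the groups, as given above, while the same ratio for Gapdh was 1.01 ± 0.03 with DMSO and 1.02 ± 0.01 with tamoxifen. The part of fibroblast RNA, of these cell types and of RNA quality in the fall of the keratins and claudins was not tested.

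How the 9 genes varied among themselves was described by Pearson's r of log2 signals over the 12 transfected arrays, which share platform, scaling and the groups. Cldn7 went with Krt19 (r = 0.93), Epcam (0.92), Krt7 (0.84) and Cldn4 (0.80), and Krt19 with Epcam at 0.84. Krt8 and Krt18, which lie next to each other in the genome and pair as proteins, had r = 0.38 over these arrays, and 0.995 over the 6 group means, which the knockout groups dominate. Neither of them went with Cldn7 (r = -0.01 for Krt8 and 0.002 for Krt18). The lowest value was between Cldn6 and Rab25 (-0.60).

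**Figure D5:**
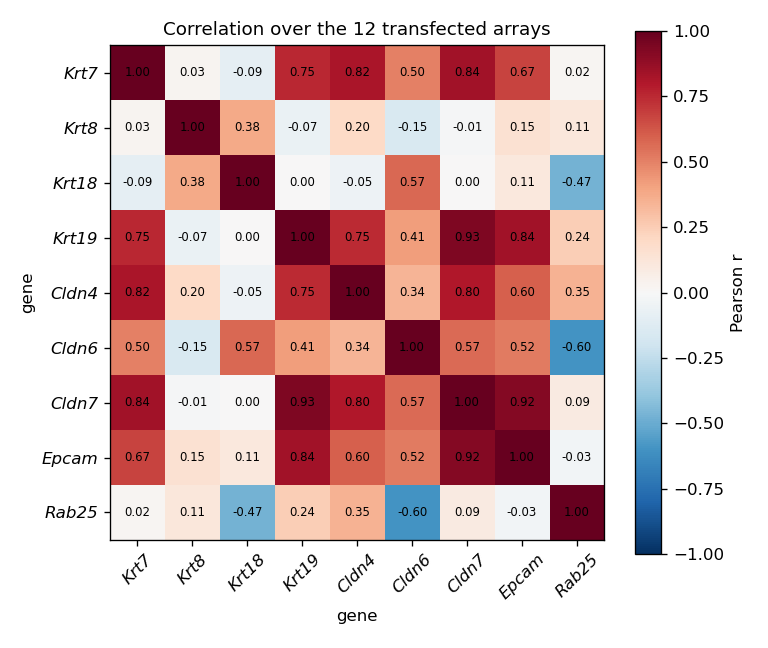
Pearson's r of log2 signals between each pair of the 9 genes over the 12 transfected arrays (colour scale from -1 to 1, value in each cell). Krt7, Krt19, Cldn4, Cldn7 and Epcam form a block of values from 0.60 to 0.93, apart from Krt8, Krt18 and Rab25.

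Of 11600 other genes, those most like each member over the 12 transfected arrays were found by the same r. For Krt19 these were Gpat3 and Pcgf5 (both 0.97), and for Cldn7 Nfkbiz and Slc5a3 (both 0.97). Slc5a3, a carrier of myo-inositol, had mean signals of 580 with the vector, 518 with the Foxd3 label, 1666 with CA-NFATc3 and 721 with the combination. For Epcam they were Psen2 (0.95) and Specc1 (0.94), for Krt7 Tspan14 (0.97) and Cdc14b (0.92), and for Cldn4 Cyb561a3 and the desmosomal cadherin Dsg2 (both 0.94). For Krt18 they were Phldb2 (0.96) and Lhfp (0.95), which were highest with the combination. Krt8 had Plk4 (0.91) and Nuak2 (0.90), Cldn6 had Niban3 (0.89) and Glipr2 (0.87), and Rab25 had Mfn2 and Abhd11 (both 0.89). No p is given, as these genes were the best of many.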

How the data were processed

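The authors deposited an intensity for each probe set and array, which is the unlogged MAS5 signal per the submitters' processing notes (no version given). From the values, each array's mean without the lowest and highest 2% was about 500.003, which is a common scaling. Detection calls and background are not analysed here. Of 45101 probe sets 64 were controls, the platform's annotation gave 34945 a symbol of 1 gene, 932 several symbols and 9160 no symbol. Names and start-site windows came from RefSeq tables of GRCm38.p6.

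Signals plus 32 were put on the log2 scale. Genes entered a test with 3 or more of its arrays at or above 65.8, the overall median signal: 11609 genes in the 12 transfected arrays, all 9 members among them, and 12093 genes in the 6 knockout arrays, 8 members among them. In the transfected cells Elf5, Krt23 and Myo5b entered through the CA-NFATc3 arrays alone, and the counts of their lists include them. For Twist1, Sox17 and Col3a1 all vector arrays and all arrays labelled Foxd3 were below 65.8. limma 3.58.1 under R 4.3.3 fitted the group means (eBayes with a variance trend), separately for transfected and knockout cells, with two-sided tests, Benjamini-Hochberg adjustment over all genes tested and no covariates. The script was tested on simulated data. Python 3.11.15 with matplotlib 3.10.9 made the figures and searched the motifs.

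The labels call replicates biological and say no more of their source. Residuals of transfected arrays with the same replicate number correlated at 0.104 to 0.315 over 18 pairs, and of other numbers at -0.282 to 0.0133 over 36 pairs. Their numbers were therefore taken to pair the samples, and values with the number as a block are given where they change a call. All other counts, shares and adjusted p values come from the fit without the block, which leaves this pairing out. In the knockout cells 3 same-number pairs had -0.0425 to 0.0152 and were not taken as paired.

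The members and gene lists were chosen with earlier results of these data known. The named genes were the 9 members, the 3 largest called changes per direction, list and comparison, Foxd3, Nfatc3 and Rcan1, and the 2 genes most like each member. Cldn9, Snai1, Snai2, Zeb2 and, for tamoxifen, Zeb1 were named outside this rule. Alternatives were other offsets, filters, probe-set rules, quantile normalization, array weights, other sets of arrays, the replicate block and leaving out each array.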

Additional observations from a re-analysis of the deposited data

Results flagged for a closer look

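Cldn7 differed between settings in its response to CA-NFATc3: the interaction term was -1.29 ± 0.22 (limma, adjusted p = 0.00860), that is, the difference made by CA-NFATc3 was smaller where Foxd3 was on the label. The adjusted p was 0.000370 to 0.0436 over 23 alternatives. Groups of 3 arrays were not examined for outlying samples.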

How the results depend on the processing

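Of 16 called results of single members, 9 kept their call in every alternative, and of their 334 alternatives 302 did and 32 lost it; 0 of the 62 member results reversed. Of 1089 alternatives of the 46 results not called, 33 passed. Krt19 and Cldn7 kept their calls for CA-NFATc3 against vector, for the combination against CA-NFATc3 and for tamoxifen, and so did Cldn7 for the interaction and Cldn4 and Epcam for tamoxifen. Low signals limit Krt7, Krt19, Cldn6 and Rab25, and the cause of the changes below was not tested.

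For Foxd3 against vector the count of 1 called member became 2 with an offset of 16, with no offset, with a filter on the mean signal and with the mean of a gene's probe sets, 3 with quantile normalization, the replicate block and array weights, and 0 to 2 without 1 array, and with all 18 arrays in a fit it stayed 1 but was Cldn6, higher, in place of Rab25. For both plasmids against vector it went from 1 to 2 with the replicate block and was 0 to 1 without 1 array. For both against CA-NFATc3 it went from 2 to 5 with the replicate block and 4 with array weights. For both against Foxd3 it went from 0 to 1 with all 18 arrays in a fit, the replicate block and array weights, and was 0 to 1 without 1 array. For the interaction it went from 1 to 2 with quantile normalization, all 18 arrays, the replicate block and array weights, and was 1 to 2 without 1 array. For tamoxifen 7 became 4 with no filter on low signals and 4 to 7 without 1 array. For CA-NFATc3 against vector every alternative stayed within 1.5 times the count of 4. Over all genes, the replicate block moved the calls from 334 to 783 for Foxd3 against vector, 680 to 1104 for CA-NFATc3 against vector, 559 to 1122 for both against vector, 711 to 1258 for both against CA-NFATc3, 38 to 96 for both against Foxd3 and 94 to 245 for the interaction. Array weights gave 552 for Foxd3 against vector and 172 for the interaction, and all 18 arrays gave 161 for the interaction and 63 for both against Foxd3. The mean of probe sets gave 220, 341 and 25 for Foxd3 against vector, both against vector and both against Foxd3, and testing every probe set gave 6328 for tamoxifen, where 4165 genes were called. Without 1 array the lowest counts over all genes were 158 for Foxd3 against vector, 349 (CA-NFATc3 against vector), 322 (both against vector), 385 when both were set against CA-NFATc3, 22 for both against Foxd3 and 48 for the interaction. In the knockout cells, whose numbers do not pair, the block removed the call of Krt18 (adjusted p = 0.0697). The block changed no other member's call than those given here or above.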
